A study of Mus musculus with 10 samples.

Results

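Kruppel-like factors (KLFs) are DNA-binding proteins whose C-terminal zinc fingers recognise GC-rich and CACCC elements, and whose N-termini recruit either coactivators or corepressors. In mouse embryonic stem cells, Klf2, Klf4 and Klf5 act together to sustain self-renewal, and Klf4 is one of the transcription factors used to reprogram somatic cells. Other members are repressors, among them Klf3, which binds CtBP, and Klf9, Klf10, Klf13 and Klf16, which bind the Sin3A corepressor.

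The 9 genes described here (Klf2, Klf3, Klf4, Klf5, Klf6, Klf9, Klf10, Klf13 and Klf16) were taken as a fixed list, and all of their measured 3′ ends were kept. They had 15 of the 43031 quantified features. Features with the same coordinates were summed, which left 12 of 28706 sites. A site is a 3′UTR of the UCSC annotation with 2 kb added downstream, and its level is given in TPM, the abundance that StringTie gives per transcript after correction for length and depth. Klf3, Klf5 and Klf10 had a pair of sites each, and no member site shared a base with another site on either strand.

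RNA came from mouse embryonic stem cells (ESC) of C57BL/6 strain, grown with 20% fetal calf serum and leukemia inhibitory factor, either on mouse embryonic fibroblast feeders or on gelatin. WT cells were compared with DIDO3ΔE16 cells, which lack exon16 of Dido on both alleles after Cre recombination driven by a Sox2-Cre transgene, and with DIDO3ΔCT+HADIDO3 cells, in which a constitutive C-terminal deletion that affects the same exon was complemented by HA-tagged DIDO3. Each group had 3 libraries. The labels name 4 WT replicates, but replicates 2 and 3 carry 1 library identifier and were counted as a single library, WT 2-3. WT 1 and WT 4 carry identifiers of one family (C7A9), and all other libraries those of another (C79M). Nothing says whether libraries of a group came from separate cultures, so p-values measure the spread between these libraries, which may be technical.

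The libraries held 1.46 to 2.61 Gb of sequence in the quantified features. At the Dido1 site farthest downstream, on chromosome 2, TPM was 13.7 to 17.9 in WT, 0.307 to 0.546 in DIDO3ΔE16 and 10.9 to 12.1 in DIDO3ΔCT+HADIDO3. Of the ESC markers, Sox2 was at 386 to 485 TPM and Pou5f1 at 168 to 484 TPM in the 9 libraries. Zfp42 was at 74.2 to 268 TPM and Utf1 at 53.4 to 69.0 TPM. Nanog (3.10 to 1177 TPM) and Esrrb (5.18 to 1903 TPM) were low in some libraries, which are named below. The summed level of 14 feeder fibroblast markers was 106 to 121 TPM in WT, 233 to 244 TPM in DIDO3ΔE16 and 102 to 110 TPM in the reconstituted cells. In the last group, however, that sum came mostly from Thy1 (52.2 to 56.1 TPM) and Pdgfrb (38.5 to 41.8 TPM), while Col3a1 and Twist2 were at 0 in its 3 libraries and Col1a2 did not exceed 0.246 TPM. Lum was at 0 in 8 of the 9 libraries. Since fibroblasts also express several KLFs, these values stand beside every difference below, and their part in it was not tested. In such bulk samples, fewer cells of a type and less RNA per cell cannot be told apart.

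Klf3 and Klf5 are shown first by position because each has an upstream site in an intron, and Klf9 because its annotated end lies beyond the UCSC end. The Klf3 downstream site (chr5:64829159-64832129, plus strand) starts after the stop codon of the full-length coding transcript and lies wholly in its 3′UTR, which in GENCODE M21 runs a further 772 bases. The Klf3 upstream site (chr5:64823034-64826806) ends 2352 bases before it. This stretch is intron in the full-length coding transcript, but 63.6% of it is exon of other GENCODE transcripts of the gene, among them retained-intron transcripts, of which one ends at position 64823109, near the start of the site. The Klf5 upstream site (chr14:99303486-99307331) is of the same kind: it starts after the stop codon of a shorter coding transcript and is intron in the longer one, whose 3′ end is measured by the downstream site (chr14:99313330-99315409). The windows of 30 bases below were read from GENCODE M21 transcripts (GRCm38/mm10), 5′ to 3′ on the coding strand. They show annotated ends in or near these sites, and capitals mark a polyadenylation signal, AATAAA. The Klf9 window also holds an earlier AATAAA, left in lower case.
Klf3 upstream, retained-intron end, chr5:64823075-64823104: ctggggtcccggAATAAAacatggaattgc
Klf3 downstream, coding end, chr5:64832869-64832898: tatatacttgttAATAAAaccatctgaata
Klf5 downstream, coding end, chr14:99315002-99315031: tttttttttgaaAATAAAaagtgcctaaaa
Klf9, coding end, chr19:23168098-23168127: ccaaataaaaatAATAAAtgataaagatta
The signal was searched on the coding strand in the last 50 bases before each annotated end, where 40.6% of 58787 protein-coding GENCODE transcripts hold AATAAA. At the UCSC ends on which the Klf3 sites were built, at positions 64824806 and 64830129, neither AATAAA nor ATTAAA was found in that window, nor at a further retained-intron end in the upstream site, at position 64825429. Neither was found at the UCSC ends of both Klf5 sites, Klf6 and Klf9, whereas those of Klf2, Klf10 downstream, Klf13 and Klf16 held a signal. The UCSC ends of Klf4 and Klf10 upstream lie in no GENCODE exon and were not read. Of the protein-coding transcripts, 50.2% hold either signal.

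In WT, the members spanned from hardly detected to among the most abundant sites of the cell. Klf4 had the highest level, 423 ± 22.9 TPM (SD, n = 3), followed by Klf9 (390 ± 13.6 TPM) and the Klf5 downstream site (357 ± 23.7 TPM), and the ranges of neighbours in this order overlapped. These were above 99.1%, 98.9% and 98.7% of all sites. GENCODE exons of the gene cover 32.9%, 80.6% and 82.1% of these sites, and TPM is corrected for the whole site. The order therefore ranks sites and not transcripts of different genes. Klf10 followed with 193 ± 4.21 TPM at its upstream site, apart from its neighbours in the order. Klf2 (155 ± 5.27 TPM), Klf16 (145 ± 5.09 TPM) and the Klf3 downstream site (133 ± 11.8 TPM) came next, and each of these overlapped the next. Klf6 was at 57.0 ± 3.99 TPM. The minor sites were lower, at 17.3 ± 1.43 TPM upstream in Klf3, 2.33 ± 0.249 TPM upstream in Klf5 and 0.016 TPM downstream in Klf10. Mean read depth in the libraries was 1.23 to 4.09 at the Klf5 upstream site and 3.55 to 21.7 at the Klf3 upstream site, so that values there rest on few reads. At the other sites, Klf13 and Klf10 downstream apart, it was at least 16.7.

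**Figure D1:**
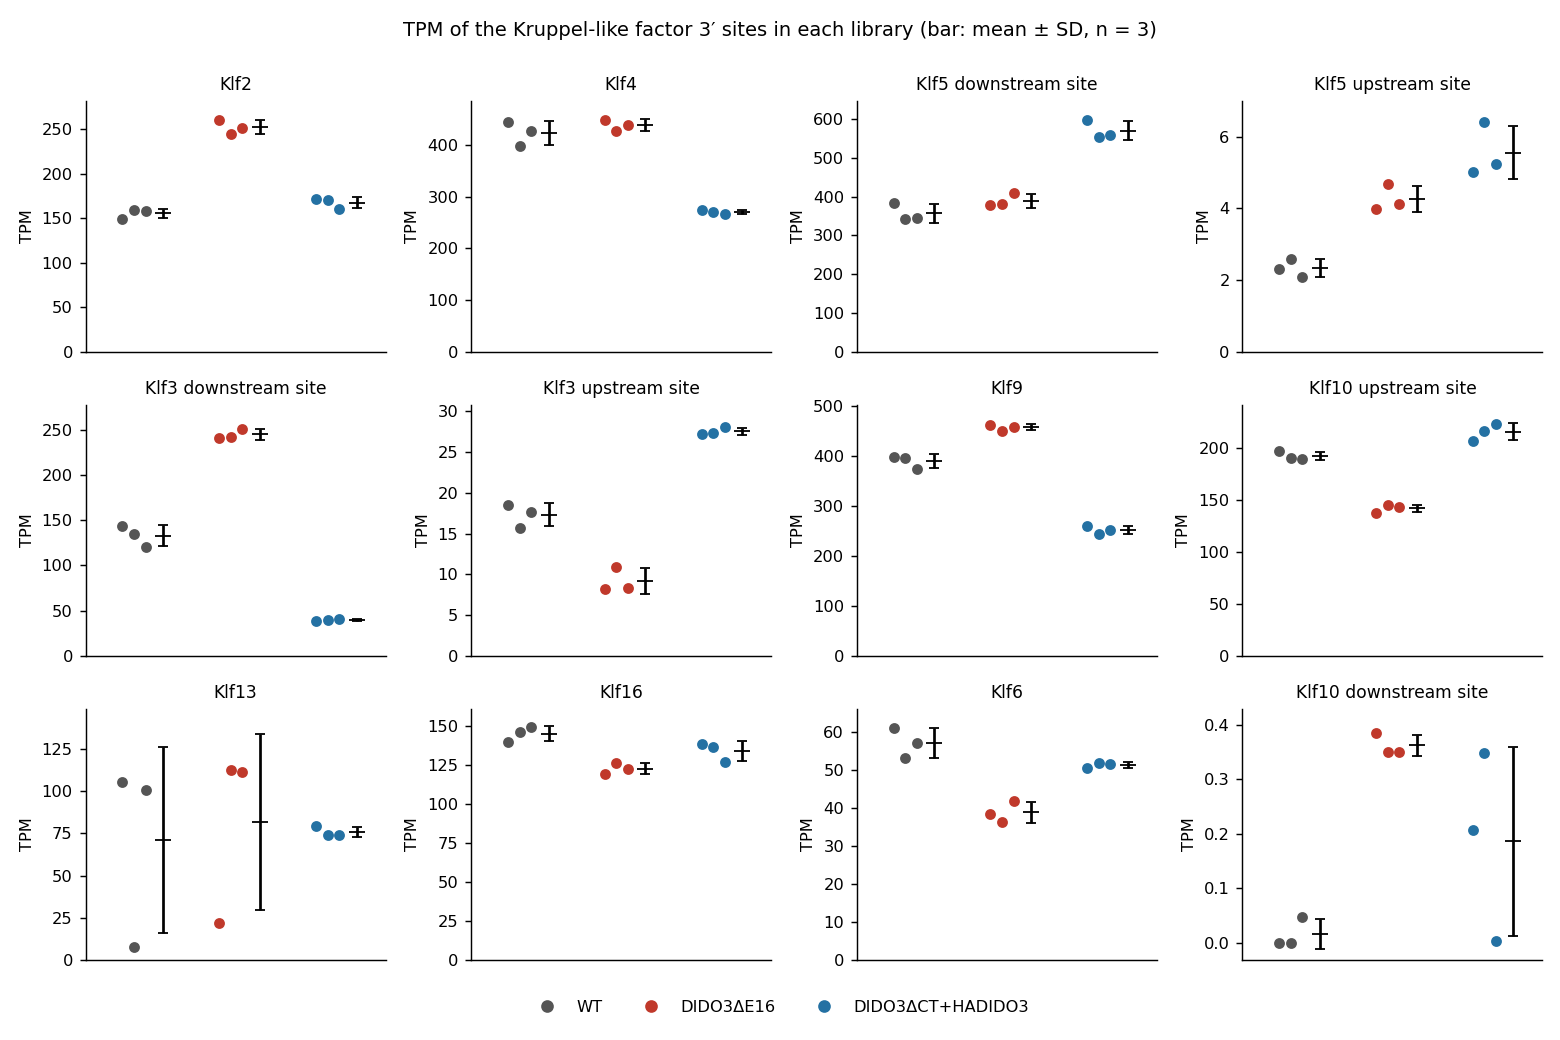
TPM of each of the 12 sites (y axis, starting at 0 except for Klf10 downstream) in the 3 libraries of each group (points, replicates from left to right), with the mean ± SD beside them. Klf2 is set apart in DIDO3ΔE16, whereas Klf4, Klf5 downstream and Klf9 are set apart in DIDO3ΔCT+HADIDO3, and 1 library of WT and 1 of DIDO3ΔE16 are low at Klf13.

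To compare groups, TPM were scaled between libraries and tested on log2(TPM + 0.1) with limma over all sites, with Benjamini-Hochberg adjustment. A site was called when its log2 fold change was at least 0.7 in size with an adjusted p under 0.05. In DIDO3ΔE16 relative to WT, 3 of the 11 member sites tested were called (27.3%), against 15.1% of all 21063 sites; 2 were higher, against 10.2%, and 1 was lower, against 4.94%. Between DIDO3ΔCT+HADIDO3 and WT, 4 of 11 were called (36.4%), against 17.3% of 20879 sites, with 1 higher, against 10.1%, and 3 lower, against 7.24%. Between the mutants, 4 of 12 were called (33.3%), against 27.4% of 21172 sites, with 3 higher in DIDO3ΔE16, against 13.9%, and 1 lower, against 13.4%. Sites of 1 gene are counted apart here: the calls in DIDO3ΔE16 against WT were both Klf3 sites and Klf5 upstream. With each of the 9 genes taken by its most abundant site, 1 was called higher and 0 lower in DIDO3ΔE16. It was 0 and 3 in DIDO3ΔCT+HADIDO3, and 3 and 0 between the mutants, beside the same shares of all sites. An adjusted p under 0.05 at any fold was reached by 8 member sites in each comparison, against 33.2%, 38.4% and 49.2% of all sites. In unscaled TPM, the groups did not overlap at 8, 10 and 11 member sites, where the shares of all sites were 49.4%, 53.5% and 61.6%. Both comparisons with WT share the WT libraries. The median log2 fold change of the member sites was 0.063, 0.0057 and -0.16, and that of all sites -0.012, -0.014 and 0.011, so that the members did not move in one direction.

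**Figure D2:**
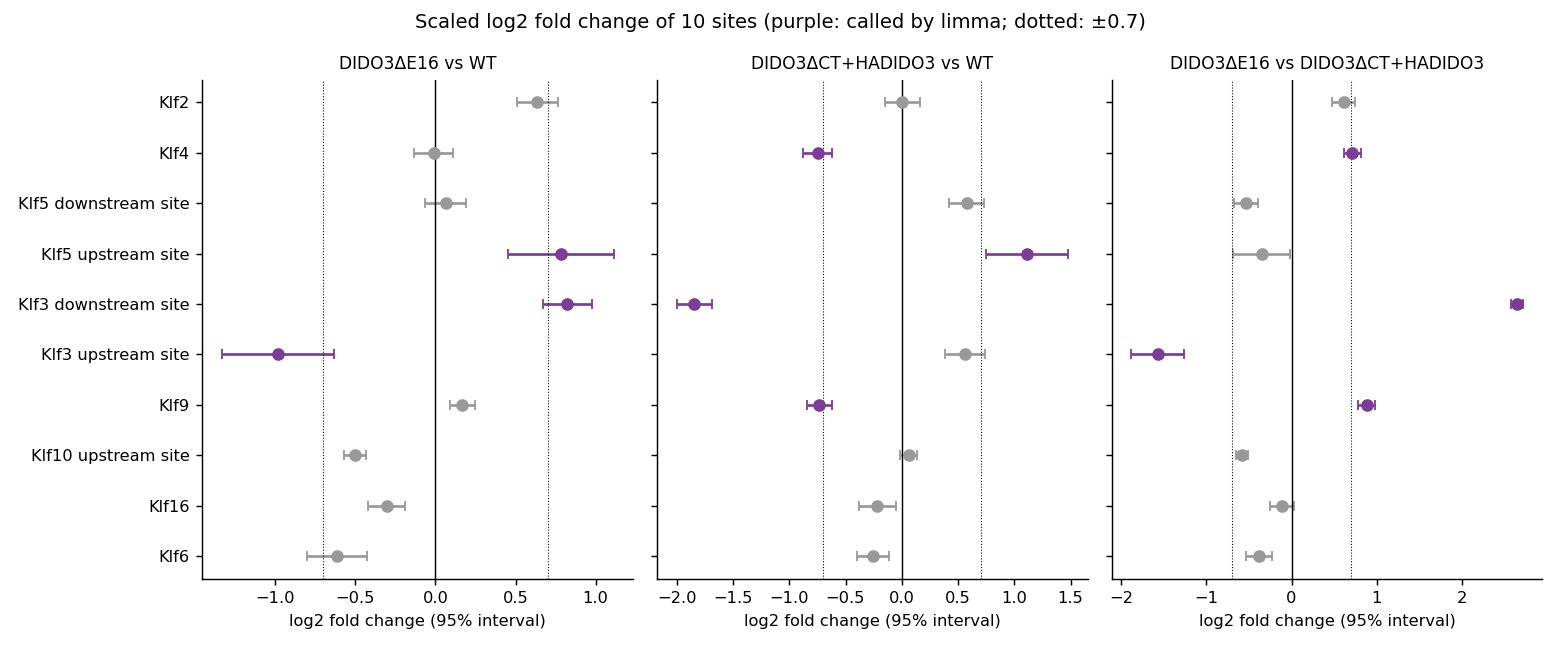
Log2 fold change (x axis) with its 95% interval from limma for 10 member sites in the 3 comparisons; dotted lines mark the limit of 0.7 in either direction, and purple points are called. Klf13 and the Klf10 downstream site are left out. Klf3 downstream lies right of 0.7 in the first panel, left of -0.7 in the second and at 2.64 in the third.

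Among the main sites of the KLFs of the self-renewal circuit, only Klf4 in DIDO3ΔCT+HADIDO3 was called against WT. Klf2 in DIDO3ΔE16 and Klf5 in DIDO3ΔCT+HADIDO3 had an adjusted p under 0.05 but stayed under the fold limit. Klf2, on chromosome 8 (chr8:72320920-72323654), had 149, 159 and 158 TPM in WT, 261, 245 and 251 TPM in DIDO3ΔE16, and 172, 171 and 160 TPM in DIDO3ΔCT+HADIDO3. DIDO3ΔE16 thus lay above every other library, with a log2 fold change of 0.64 ± 0.050 (SE) over WT, that is 1.55-fold (adjusted p = 0.000987). This is under the fold limit, and quantile normalization would take it past (0.74). DIDO3ΔCT+HADIDO3 differed from WT by 0.0057 with a 95% interval of -0.15 to 0.16 (adjusted p = 0.95).

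Klf4, which LIF signalling sustains through STAT3, was lower in the reconstituted cells alone. Its site (chr4:55525137-55528124, minus strand) had 444, 399 and 427 TPM in WT and 449, 426 and 440 TPM in DIDO3ΔE16, and both groups overlapped. The difference was -0.012 on the log2 scale, with an interval of -0.13 to 0.11 (adjusted p = 0.88). In DIDO3ΔCT+HADIDO3, Klf4 was at 275, 271 and 266 TPM, under all libraries of the other groups. Klf4 fell by 0.75 on the log2 scale against WT (SE 0.051, adjusted p = 0.00054), and the mutants differed by 0.72 (adjusted p = 0.000157). Both values lie near the limit of 0.7. With WT 2-3 as the only WT library of the same identifier family, the change against WT was -0.67 and no longer called. This and the further values given within the C79M identifiers come from a fit with the identifier family as a covariate, in which WT rests on that library alone and is assumed to vary like the others. The change was -0.64 without scaling and -0.62 with quantile normalization. Without DIDO3ΔE16 replicate 1 or DIDO3ΔCT+HADIDO3 replicate 3 the difference between the mutants was 0.69 or 0.68.

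Klf5 was measured at its main 3′ end with 384, 342 and 344 TPM in WT, 377, 381 and 408 TPM in DIDO3ΔE16, and 598, 555 and 558 TPM in DIDO3ΔCT+HADIDO3. WT and DIDO3ΔE16 overlapped (log2 fold change 0.063, adjusted p = 0.40), and the reconstituted cells were above both. Their log2 fold change over WT was 0.58 ± 0.062 (SE; adjusted p = 0.0020), which is 1.49-fold and under the limit, as was the difference between the mutants (-0.53, adjusted p = 0.000949). The intronic upstream site of Klf5 had 2.31, 2.59 and 2.09 TPM in WT, 3.97, 4.67 and 4.12 TPM in DIDO3ΔE16, and 5.02, 6.39 and 5.22 TPM in DIDO3ΔCT+HADIDO3. It rose in both mutants, by 0.78 (adjusted p = 0.00886) and by 1.11 (adjusted p = 0.00344) on the log2 scale. The change in DIDO3ΔE16 was not called within the C79M identifiers (0.63, adjusted p = 0.080), with a pseudocount of 1 (0.61) or with quantile normalization (0.57). The upstream site held 0.651% ± 0.087 (SD, n = 3) of the summed TPM of both sites in WT, 1.08% ± 0.112 in DIDO3ΔE16 and 0.966% ± 0.157 in the reconstituted cells. Site TPM is read coverage and does not count 3′ ends. Reads of the shorter transcript and of intron left in the longer one cannot be told apart there.

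The sum of Klf2, Klf4 and Klf5 was 937 ± 39.3 TPM in WT, 1084 ± 24.0 TPM in DIDO3ΔE16 and 1014 ± 31.4 TPM in DIDO3ΔCT+HADIDO3 (SD, n = 3). By site TPM, Klf5 was the highest of the trio in DIDO3ΔCT+HADIDO3, and Klf4 in WT and DIDO3ΔE16. GENCODE exons of the gene cover 26.9% of the Klf2 site, 32.9% of the Klf4 site and 82.1% of the Klf5 downstream site. TPM is corrected for the length of the whole site, so this order and the sum do not rank or add up transcripts.

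Klf3, the CtBP-dependent repressor, held the largest fold change of the tested member sites in each of the 3 comparisons. In DIDO3ΔE16 against WT this was the fall at its upstream site (-0.98 on the log2 scale), and otherwise the change at its downstream site. The downstream site had 143, 135 and 120 TPM in WT, 241, 243 and 252 TPM in DIDO3ΔE16, and 38.6, 39.9 and 40.5 TPM in DIDO3ΔCT+HADIDO3. The groups were well apart, with DIDO3ΔE16 highest and the reconstituted cells lowest, so that the mutants lay on opposite sides of WT. The site rose by 0.82 ± 0.061 (SE) in DIDO3ΔE16 (adjusted p = 0.000825) and fell by 1.84 in DIDO3ΔCT+HADIDO3 (SE 0.063, adjusted p = 0.000107), 3.58-fold under WT. Between the mutants the log2 difference was 2.64 (6.25-fold, adjusted p = 6.06e-06). Within the C79M identifiers, with WT 2-3 alone for WT, the changes were 0.79 and -1.87.

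The upstream site of Klf3 differed in the other direction in each of the 3 comparisons. It had 18.5, 15.7 and 17.7 TPM in WT, 8.17, 11.0 and 8.36 TPM in DIDO3ΔE16, and 27.2, 27.4 and 28.1 TPM in DIDO3ΔCT+HADIDO3. No group overlapped another. In DIDO3ΔE16 it fell by 0.98 on the log2 scale (SE 0.14, adjusted p = 0.00509), but within the C79M identifiers by 0.85 with an adjusted p of 0.054, which misses the threshold. In DIDO3ΔCT+HADIDO3 it was 0.57 higher than in WT (adjusted p = 0.00304), under the fold limit, and the mutants differed by -1.57 (adjusted p = 0.000382).

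As a share of the TPM of both Klf3 sites, the upstream site made up 11.4%, 10.4% and 12.8% in the WT libraries. It was 3.28%, 4.32% and 3.22% in those of DIDO3ΔE16, whereas the values with HADIDO3 were 41.3%, 40.7% and 40.9%. The means were 11.6% ± 1.22, 3.61% ± 0.621 and 41.0% ± 0.318 (SD, n = 3). An exact two-sided permutation test over libraries gave p = 0.1 for each pair of groups, the smallest this test can give with 3 libraries a group. Summed over both sites, Klf3 still differed from WT in opposite directions, by 0.68 in DIDO3ΔE16 (adjusted p = 0.000761) and -1.24 in DIDO3ΔCT+HADIDO3 (adjusted p = 0.000156). The summed level and the upstream share of TPM thus both differed. The upstream site is intron in the full-length coding transcript and TPM is read coverage. The share therefore does not count 3′ ends, and reads of unspliced RNA cannot be told apart there. At both sites nearly all TPM were assigned to 1 of the features with the same coordinates, uc008xmu.1 upstream and uc008xmt.1 downstream; the other features held at most 0.528 and 0.322 TPM.

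**Figure D3:**
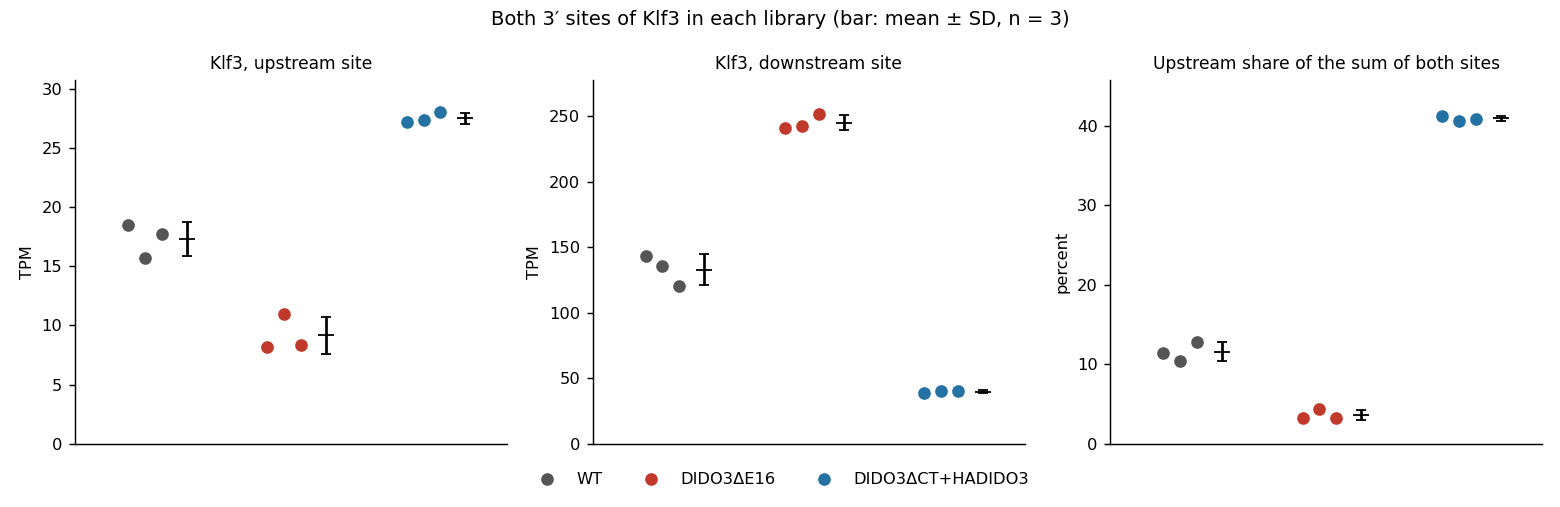
TPM of the upstream and downstream 3′ sites of Klf3 and the upstream share in percent (y axes from 0), by library (points) with mean ± SD. The order of the groups at the upstream site is the reverse of that at the downstream site, and the share lies between 3.22% and 4.32% in DIDO3ΔE16 and between 40.7% and 41.3% in DIDO3ΔCT+HADIDO3.

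Of the Sin3A-binding members, only Klf9 in DIDO3ΔCT+HADIDO3 was called against WT. Klf9, which glucocorticoid and thyroid hormones induce, had 399, 397 and 375 TPM in WT at its site on chromosome 19 (chr19:23164913-23168911). DIDO3ΔE16 was slightly above, with 464, 452 and 459 TPM, and DIDO3ΔCT+HADIDO3 clearly below, with 260, 244 and 252 TPM. The difference in DIDO3ΔE16 was 0.17 (adjusted p = 0.0117). In DIDO3ΔCT+HADIDO3, Klf9 fell by 0.73 on the log2 scale (SE 0.044, adjusted p = 0.000365) and by more within the C79M identifiers (-0.76, adjusted p = 0.00587), although it was at -0.63 without scaling and at -0.60 with quantile normalization, short of the limit. The mutants differed by 0.88 (adjusted p = 8.37e-05).

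Klf10, an early gene induced by TGFβ, had 198, 190 and 190 TPM in WT at its upstream site (chr15:38292406-38295904, minus strand), which holds the end of its main coding transcript. It had 138, 145 and 143 TPM in DIDO3ΔE16, under all other libraries, and 207, 216 and 224 TPM in DIDO3ΔCT+HADIDO3. The log2 difference of DIDO3ΔE16 from WT was -0.50 ± 0.027 (SE; adjusted p = 0.000351), with -0.58 between the mutants (adjusted p = 9.84e-05), neither past the fold limit. Although deposited TPM in DIDO3ΔCT+HADIDO3 were above WT in every library, the scaled difference was 0.060 (interval -0.013 to 0.13, adjusted p = 0.17). The downstream site of Klf10, 216 bases away, was hardly detected, with at most 0.048 TPM in WT, 0.351 to 0.385 TPM in DIDO3ΔE16 and 0.004 to 0.348 TPM in DIDO3ΔCT+HADIDO3. It is listed at 0 in 2 WT libraries and was tested only between the mutants (adjusted p = 0.25).

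Klf16 varied little. It had 139, 146 and 149 TPM in WT, 119, 126 and 122 TPM in DIDO3ΔE16, and 138, 136 and 127 TPM in DIDO3ΔCT+HADIDO3. Its log2 difference from WT was -0.31 in DIDO3ΔE16 (adjusted p = 0.00662) and -0.22 in DIDO3ΔCT+HADIDO3 (adjusted p = 0.0486), and the mutants did not differ past the threshold (-0.11, interval -0.25 to 0.033).

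Klf6, a factor induced by tissue injury, was lower in DIDO3ΔE16 than in all other libraries. It had 60.9, 53.0 and 57.1 TPM in WT, 38.4, 36.3 and 41.8 TPM in DIDO3ΔE16, and 50.4, 51.9 and 51.5 TPM in DIDO3ΔCT+HADIDO3. The log2 difference from WT was -0.62 ± 0.074 (SE; adjusted p = 0.00311) in DIDO3ΔE16 and -0.25 (adjusted p = 0.0197) in DIDO3ΔCT+HADIDO3. At a fold limit of 1.5, Klf6 and Klf2 would both be called in DIDO3ΔE16.

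Klf13 could not be compared as the others were. Its site on chromosome 7 (chr7:63884351-63891507, minus strand) had 106, 7.67 and 100 TPM in WT, 21.6, 112 and 111 TPM in DIDO3ΔE16, and 79.3, 73.9 and 73.9 TPM in DIDO3ΔCT+HADIDO3. WT 2-3 was thus at 7.45% of the mean of the other WT libraries, and DIDO3ΔE16 replicate 1 at 19.3% of the mean of the others of its group. The site is made of a pair of features with the same coordinates, and in WT 4 all of its TPM was assigned to uc009hfn.2, while elsewhere the features held similar parts. A range of over 10-fold within a group was found at 19.4% of 4184 sites with several such features (at least 10 TPM in some library, no overlap on the strand), and at 0.338% of 6222 sites with a single feature. With all libraries, the log2 fold change was 0.51 with an interval of -2.95 to 3.97 in DIDO3ΔE16 and 0.70 with -2.24 to 3.63 in DIDO3ΔCT+HADIDO3. Within the C79M identifiers, where the low WT 2-3 is the only WT library, it was 3.0 in DIDO3ΔE16 (adjusted p = 0.17) and 3.18 in DIDO3ΔCT+HADIDO3 (adjusted p = 0.000461). Without WT 2-3 it was -0.55 in DIDO3ΔCT+HADIDO3 (adjusted p = 0.00764), and without DIDO3ΔE16 replicate 1 the mutants differed by 0.58 (adjusted p = 0.00319). When both low libraries were left out, a choice made after seeing the data, DIDO3ΔE16 differed from WT by 0.047 (SE 0.044). The same number of member sites, 3, was called in that fit, beside 2384 of all 21587 sites.

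**Figure D4:**
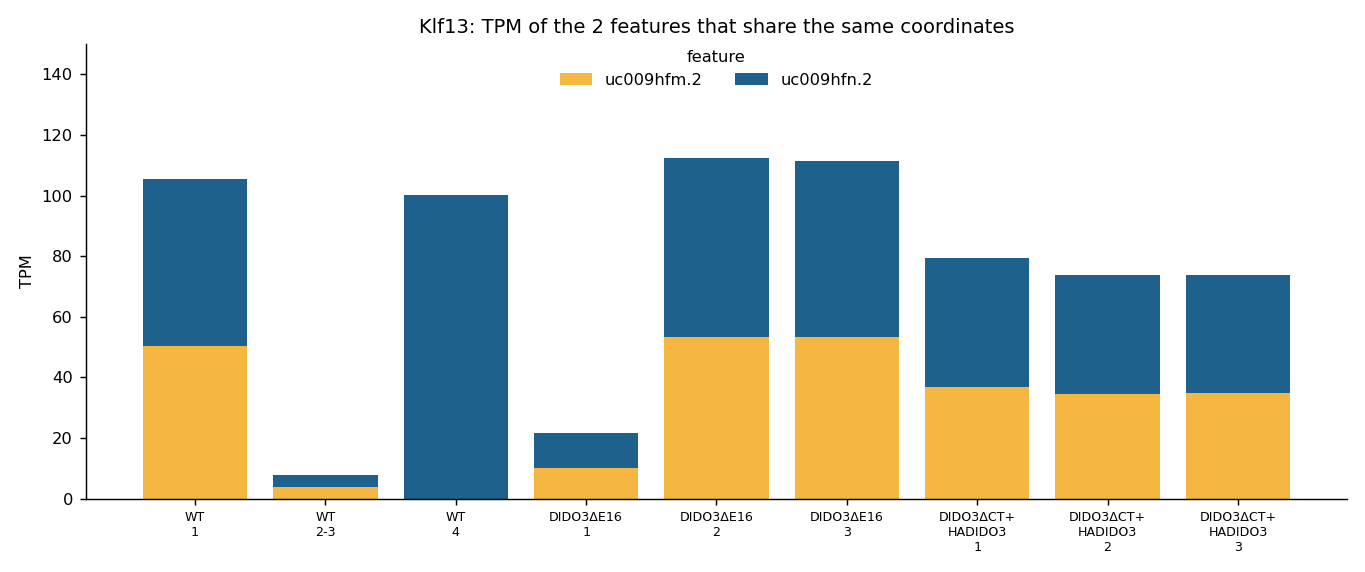
TPM (y axis from 0) of the Klf13 features uc009hfm.2 and uc009hfn.2, stacked, in each of the 9 libraries (x axis, group and replicate). WT 2-3 and DIDO3ΔE16 replicate 1 stand at 7.67 and 21.6 TPM, and WT 4 has uc009hfn.2 alone.

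The rest of the KLF and SP family gave 17 genes, each taken by its most abundant site. In DIDO3ΔE16, 1 rose and none fell by the limma call, against 10.2% and 4.94% of all sites. An unadjusted p under 0.05 was reached by 11. An adjusted p under 0.05 was reached by 5, against 33.2% of all sites. The gene that rose was Klf15, a metabolic regulator of muscle and liver, from 12.5 to 26.8 TPM (log2 fold change 1.03, adjusted p = 0.00202). In DIDO3ΔCT+HADIDO3, 3 rose and 4 fell, against 10.1% and 7.24% of all sites. Klf12, which like Klf3 binds CtBP, rose from 13.9 to 33.5 TPM (1.17, adjusted p = 0.000933), and Sp7, the osteoblast factor osterix, rose at a low level from 0.567 to 1.91 TPM. Klf1, the erythroid factor, fell from 1.92 to 0.711 TPM, Sp8 from 1.98 to 0.285 TPM and Sp6 from 29.3 to 14.0 TPM. Between the mutants, 5 were higher and 3 lower in DIDO3ΔE16, against 13.9% and 13.4% of all sites. Klf7 was lower, at 13.3 against 33.7 TPM (-1.33, adjusted p = 0.000324). Sp5 was also lower there, and Sp8, Klf1 and Sp9 were higher, all of them under 5 TPM. The median log2 fold change of the list was -0.067, -0.25 and 0.12 in the 3 comparisons.

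**Figure D5:**
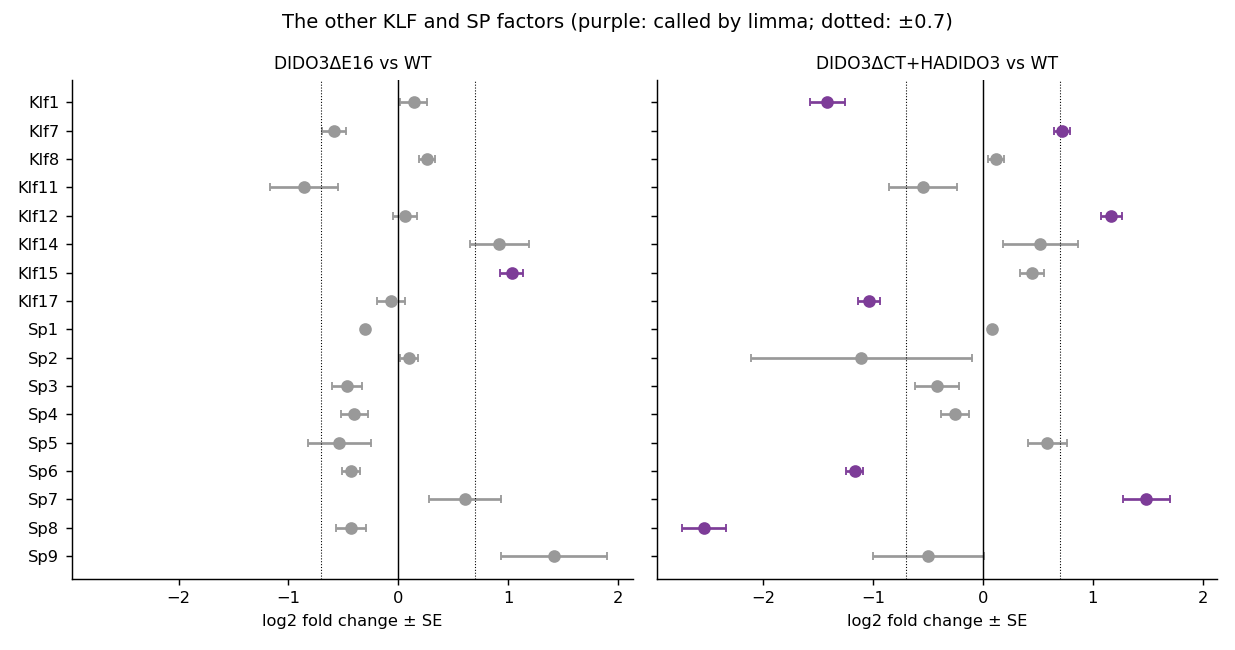
Log2 fold change ± SE (x axis) of the 17 other KLF and SP genes in each mutant relative to WT, with called genes in purple and the limit of 0.7 dotted. Klf15 is the only gene called in DIDO3ΔE16, and 7 genes are called in DIDO3ΔCT+HADIDO3.

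Proteins that work with KLFs were measured through 18 genes, including the corepressors CtBP and Sin3, histone deacetylases and acetyltransferases, and ubiquitin ligases that act on KLFs. By limma none was called in any comparison, where 15.1%, 17.3% and 27.4% of all sites were. An unadjusted p under 0.05 was reached by 7 in each of the 3. An adjusted p under 0.05 was reached by 5, 4 and 7, all under the fold limit, against 33.2%, 38.4% and 49.2% of all sites. The median log2 fold changes were -0.13, -0.057 and -0.037. Some of these sites were low in single libraries, so that differences there could not be resolved; Sin3a, named after its values were seen, was at 10.6 TPM in WT 2-3 and 20.0 TPM in DIDO3ΔCT+HADIDO3 replicate 2, and at 158 TPM or more elsewhere.

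Of 20 other genes of the naive pluripotency network, none rose and 4 fell in DIDO3ΔE16, 2 rose and 5 fell in DIDO3ΔCT+HADIDO3, and 5 were higher and 2 lower in DIDO3ΔE16 than in DIDO3ΔCT+HADIDO3. The shares of all sites higher and lower were 10.2% and 4.94%, 10.1% and 7.24%, and 13.9% and 13.4% in these comparisons. Lefty1, a Nodal inhibitor, fell in both mutants, from 87.0 TPM to 20.3 and 17.5 TPM, and so did Dppa3 (Stella), from 15.8 to 6.52 and 3.64 TPM. Mycn fell in DIDO3ΔE16 from 103 to 62.7 TPM. Zfp42 (Rex1) rose from 75.1 to 254 TPM in DIDO3ΔCT+HADIDO3, and Prdm14 from 28.6 to 57.4 TPM, while Fbxo15 fell from 13.6 to 7.37 TPM. Sall4 and Nr0b1 were higher in DIDO3ΔE16 than in DIDO3ΔCT+HADIDO3 (324 against 186 TPM, and 73.5 against 37.8 TPM), as was Fbxo15. Tcl1 was called lower in DIDO3ΔE16, but its WT libraries were at 117, 3.96 and 9.40 TPM. Between the mutants, Tcl1 was at 0.347 to 0.529 TPM in DIDO3ΔE16 against 208 to 215 TPM (log2 difference -8.62, adjusted p = 1.2e-05). Its site overlaps another on the same strand. Nanog and Esrrb have sites of several features with the same coordinates, as Klf13 has, and some libraries were low there too: Nanog was at 3.10 TPM in WT 4 and 664 TPM or more elsewhere, and Esrrb was at 5.18, 8.78 and 9.70 TPM in WT 1, WT 4 and DIDO3ΔCT+HADIDO3 replicate 2.

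Among 19 differentiation markers, 3 rose and 4 fell in DIDO3ΔE16, and 1 rose and 7 fell in DIDO3ΔCT+HADIDO3, of 17 tested in each. Between the mutants, 7 were higher and 2 lower in DIDO3ΔE16, of 18 tested. The shares of all sites higher and lower were 10.2% and 4.94%, 10.1% and 7.24%, and 13.9% and 13.4% in these comparisons. Gata4 and Sox7, markers of primitive endoderm, fell in both, Gata4 from 33.5 to 13.5 and 11.4 TPM. The neural factor Sox1 rose in DIDO3ΔE16 from 8.43 to 34.3 TPM, and Otx2 fell there from 9.42 to 2.00 TPM but rose to 20.5 TPM in DIDO3ΔCT+HADIDO3. Of the feeder fibroblast markers, set beside the same shares, 10 of 11 tested rose in DIDO3ΔE16, such as Col1a1 (11.7 to 28.7 TPM). In DIDO3ΔCT+HADIDO3, 5 of 7 fell, such as Fbln2 (33.9 to 2.45 TPM) and Col1a2 (18.2 to 0.239 TPM), while the other two, Pdgfrb (5.16 to 39.6 TPM) and Thy1 (19.1 to 54.4 TPM), rose. Between the mutants, 5 of 7 were higher in DIDO3ΔE16, and Pdgfrb and Thy1 were lower. Klf13 aside, DIDO3ΔE16 was above WT in TPM at the main sites of Klf2, Klf3 and Klf9. It was below WT at Klf6, Klf10 and Klf16, and overlapped it at Klf4 and Klf5. In unscaled TPM, DIDO3ΔCT+HADIDO3 was below WT at the main sites of Klf3, Klf4, Klf6, Klf9 and Klf16, and above it at those of Klf2, Klf5 and Klf10. After scaling, however, Klf2 and Klf10 differed from WT by only 0.0057 and 0.060 on the log2 scale (limma, adjusted p = 0.95 and 0.17). The part of feeder cells in these differences was not tested.

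Other genes followed the profiles of the members across the 9 libraries, by the root mean square (RMS) difference of centred log2 values over 11535 sites of at least 10 TPM (11534 for Klf3). Closest to Klf2 were Ppp1r9b, Mreg and Prr12 (RMS difference 0.052 to 0.068), and closest to Klf4 were Pabpc1, Basp1 and Mtus1 (0.043 to 0.060). Klf5 was followed by Rnf149 and Irak3 (0.042 and 0.048), and Klf9 by Nfatc2ip, Cttnbp2nl and Rrp1b (0.030 to 0.052). Klf10 had Wasf3, Wwp1 and Pex11a (0.028 to 0.038), Klf16 had Traf4, Slc7a5 and Gon4l (0.027 to 0.036), and Klf6 had Sugp2, Cyp51 and Ago1 (0.061 to 0.068). The downstream site of Klf3, with the widest differences between groups, had Adat2, Ccnd2 and Fgf2 at 0.10 to 0.11. For Klf13 the nearest, Arhgap1, Gm16286 and Rabggta, were at 0.25 to 0.33, and each of these has a site of several features. The profiles share the same libraries and few distinct group patterns, so that likeness is only a description.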

How the data were processed

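Per the authors' methods, BWA-MEM 0.7.15 placed read pairs on mm10, duplicates were dropped, and StringTie 1.3.3 quantified UCSC 3′UTRs with 2 kb added; the recorded command has no strand option. The deposited TPM values are not counts and are unscaled between libraries. They do not suit the count model of the study, so limma 3.58.1 (R 4.3.3) was run on log2(TPM + 0.1). Features with identical coordinates were summed and named by GENCODE M21 stop codons or exons. Libraries were scaled by a mean trimmed by 30% at each end, and sites with TPM above 0 in all libraries compared were fitted with trend and robust settings, 2 groups at a time. Precision is limited by 3 libraries a group. The script was tested on simulated data. Named genes were all members and, from other lists, at most 5 called genes per list and comparison. Members and lists were chosen with earlier results of these data known. Alternatives covered pseudocount, filter, scaling, pooling of groups, identifier family, thresholds, feature summing, leaving out libraries and the replicate number. No protein sequence was used here, and 1 gene with a profile like that of Klf5 is not reported here.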

Additional observations from a re-analysis of the deposited data

How the results depend on the processing

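With 3 libraries a group and TPM rather than counts, small differences at weakly covered sites such as Klf5 upstream cannot be resolved. Of 718 alternative values for single sites, 667 kept direction and side of the threshold, 26 lost and 7 gained the call, and 18 changed sign. The count of member sites called in DIDO3ΔE16 against WT, 3, was 5 at a fold limit of 1.5 and 0 when TPM were summed over each gene. Of all 21063 sites, 3191 were called at the main limit and 3746 at 1.5-fold. With the identifier family as covariate, where WT rests on WT 2-3 alone, Klf5 upstream changed by 0.63, under the fold limit. Klf3 upstream and downstream then changed by -0.85 and 0.79. The count in DIDO3ΔCT+HADIDO3 against WT, 4, was 2 without scaling, where 3715 of all 20879 sites were called, against 3612 with scaling. The count between the mutants, 4, was 2 with gene sums. Leaving out 1 library at a time gave 3, 4 and 3 to 4 called member sites. Of all sites, 2725 to 2955, 3150 to 3491 and 5466 to 5552 were then called. With the replicate number as a block, 0 member sites were called in both comparisons with WT, as 0 of all sites were. WT 2-3 was taken as number 2, WT 4 and mutant replicate 3 had no partner, and 1 residual degree of freedom was left. Same-numbered libraries correlated by 0.0039 to 0.037 in their deviations, and the others by -0.046 to 0.030. With 3 libraries a group, this cannot settle whether the numbers pair libraries. The Klf3 upstream share in DIDO3ΔCT+HADIDO3 was 40.6% from single features. Klf4 in DIDO3ΔE16 against WT, -0.012, was 0.052 without scaling, 0.084 with quantile normalization, 0.070 with the covariate, 0.0081 with the block, and -0.081 to 0.012 with libraries left out (0.00084 without WT 4, 0.0091 without DIDO3ΔE16 replicate 2). Klf2 in DIDO3ΔCT+HADIDO3 against WT, 0.0057, was -0.028 with the covariate, and -0.032 to 0.053 with a library left out (-0.024 and -0.0085 without DIDO3ΔCT+HADIDO3 replicates 1 or 2). With a library left out, Klf13 ran from -0.73 (without WT 2-3) to 1.29 in DIDO3ΔE16, from -0.55 (without WT 2-3) to 1.33 in DIDO3ΔCT+HADIDO3, and from -0.60 to 0.58 (without DIDO3ΔE16 replicate 1) between the mutants. Gene sums, which add the larger site, put Klf3 upstream at 0.68, -1.24 and 1.90 and Klf10 downstream at -0.62. The cause of these shifts between settings was not tested.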
